A study of Rattus norvegicus with 6 samples.

Results

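Hepatocyte growth factor (HGF) and macrophage-stimulating protein (MSP) are secreted relatives of plasminogen, and their receptors MET and RON form a small family of receptor tyrosine kinases. The set described here holds 7 of the 33713 genes in the count table: the ligand genes Hgf and Mst1, the receptor genes Met and Mst1r, the activating protease gene Hgfac and the inhibitor genes Spint1 and Spint2. They were found by gene name, and each name matched 1 line of the table. Mst1, which encodes MSP and is not the Hippo kinase gene also called by that name, was selected on its lower level after stimulation, so its difference between the groups is described here and not tested. The other members came in as its family.

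All libraries came from sciatic nerve of Sprague-Dawley rats, females 8 weeks old, labelled day 4. The nerve had been parted to a gap of about 6 mm in both groups. Electrical stimulation (ES) was then given at once for 1 h in the ES group, with 3 libraries, and was left out in the control group, with 3 libraries. Both nerve ends were next fixed by suture 2 mm inside a silicone tube of 10 mm, so the controls carried the same lesion and repair, and no intact nerve is among the libraries. Separate animals are not stated as the source of the replicates, so every p-value refers to the scatter of the libraries in hand, some or all of it possibly technical. ES 2 stood apart in markers of blood: its erythrocyte sum was 3780 CPM (counts per 1e6 counts, scaled between libraries) and its neutrophil sum 276 CPM, against 260 to 606 CPM and 22.5 to 31.9 CPM in the other 5 libraries. Whole-tissue RNA was sequenced, so fewer cells of a type and less RNA per cell cannot be told apart.

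HGF and MSP are each made as an inactive single chain that serine proteases cut into an active form. HGF activator, encoded by Hgfac, is one such protease, and the membrane-bound Kunitz inhibitors encoded by Spint1 and Spint2 restrain it and its relatives matriptase and hepsin. Active HGF binds MET and active MSP binds RON, which signal through adaptors such as GAB1 and GRB2 to the ERK and AKT kinases. HGF is known as a mesenchymal factor for epithelial cells, nerve cells and Schwann cells, and MSP as a plasma protein made in the liver that acts on macrophages and epithelia.

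Mst1 (ENSRNOG00000019680) lies on chromosome 8 from 116857684 to 116862423 and Mst1r (ENSRNOG00000032618) on the same chromosome and strand from 116686601 to 116700132. Coordinates are those of the deposited tables. Build rn7 is named in the submitters' processing notes, but 6890 gene names of the tables start with AABR07 and their chromosome 1 reaches position 282724300, which resembles an earlier build, so the build is not settled. Mst1 and Mst1r are the members whose levels did not overlap between the groups, and their promoter windows are therefore shown. The windows were taken from RefSeq for the build GRCr8, run 5′ to 3′ on the plus strand and span 250 bases before to 50 bases after the annotated start, at chr8:117647192-117647491 for Mst1 and chr8:117475718-117476017 for Mst1r. Capitals mark matches to the motifs searched on both strands, and CCGCCC in capitals is GGGCGG read on the minus strand.
Mst1: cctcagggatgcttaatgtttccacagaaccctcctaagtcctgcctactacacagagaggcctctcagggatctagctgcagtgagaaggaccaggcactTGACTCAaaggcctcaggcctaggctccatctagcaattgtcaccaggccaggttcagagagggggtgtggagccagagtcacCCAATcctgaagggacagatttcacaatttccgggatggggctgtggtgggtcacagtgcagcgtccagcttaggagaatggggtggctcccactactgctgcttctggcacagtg
Mst1r: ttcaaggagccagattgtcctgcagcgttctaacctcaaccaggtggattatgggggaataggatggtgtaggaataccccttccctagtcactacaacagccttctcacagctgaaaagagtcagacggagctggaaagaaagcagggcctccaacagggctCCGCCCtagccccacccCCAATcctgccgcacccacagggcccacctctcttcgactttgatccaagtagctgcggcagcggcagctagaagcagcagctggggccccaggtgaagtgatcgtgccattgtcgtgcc

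A total of 6 motifs were searched: the TATA box TATAAA, the CCAAT box, the GC box GGGCGG, the clock factor E-box CACGTG, the nuclear receptor half-site AGGTCA and the AP-1 site TGACTCA. Both windows held a CCAAT box on the plus strand, with its first base 66 bases before the start of Mst1 and 70 bases before that of Mst1r. CCAAT was present in 37.5% of all 33469 promoter windows of this length. The Mst1 window also held TGACTCA, beginning 149 bases before the start, a match found in 4.63% of windows. The Mst1r window held GGGCGG on the minus strand, 87 bases before the start, as 33.1% of windows did on either strand. No match overlapped another. The TATA box, the E-box and the nuclear receptor half-site, which stand in 14.2%, 6.42% and 16.2% of windows, had no match in either. The windows of Mst1 and Mst1r were 56.0% and 57.7% G and C, against a median of 51.7% over all windows.

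Among the ligands, Mst1 was at 0.120, 0.389 and 0.374 FPKM in ES 1, ES 2 and ES 3, against 2.69, 2.20 and 1.81 FPKM in control 1, control 2 and control 3. FPKM is the authors' read count scaled by gene length and library size, so it can be compared between genes. All ES libraries lay far below all control libraries, and ES 1 was the lowest. The values rest on 5, 16 and 14 reads in the ES libraries and 108, 83 and 70 reads in the control libraries. Mst1 was 7.6-fold lower in ES, with a log2 fold change of -2.93 ± 0.39 (SE) from edgeR, given as a description because this difference chose the gene. It was -3.19 without ES 2 and -2.54 without ES 1. By rank, 2.4% of the 14828 tested genes had a lower mean FPKM in ES and 20.2% in control.

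Hgf (ENSRNOG00000007027, chromosome 4, 15433295 to 15505362) was at 1.11, 1.31 and 1.59 FPKM in the ES libraries, against 1.83, 1.25 and 1.35 FPKM in the control libraries. The groups overlapped, and control 1 was the highest of the 6. Its log2 fold change was -0.15 ± 0.20 (SE), which did not pass the test (edgeR adjusted p = 0.856). Hgf exceeded Mst1 in every ES library, by 9.22, 3.37 and 4.26 times, and was at 0.678, 0.565 and 0.747 times Mst1 in the control libraries. This change in the order of the ligand genes follows from the choice of Mst1.

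**Figure D1:**
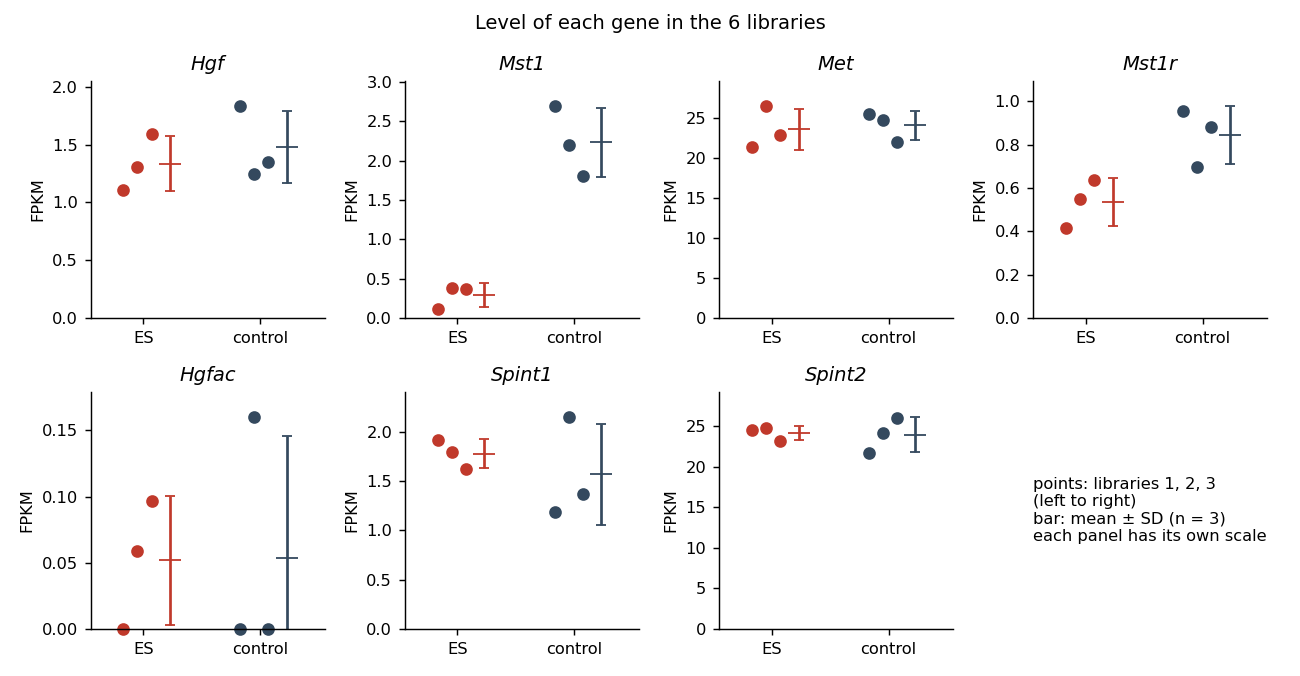
FPKM of the 7 genes in ES (red, left) and control (dark blue, right), with 1 point per library and the mean ± SD of 3 libraries beside them; every panel has its own axis from 0. Mst1 and Mst1r show no overlap between the groups, while Met and Spint2 lie between 21.3 and 26.4 FPKM in all 6 libraries.

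Met was by far the more abundant receptor gene and was level between the groups. Met (ENSRNOG00000052745, chromosome 4, 44774741 to 44852665) was at 21.3, 26.4 and 22.9 FPKM in the ES libraries, against 25.4, 24.7 and 22.0 FPKM in the control libraries. Its highest and lowest values were both in ES. The log2 fold change was -0.03 ± 0.09 (SE; edgeR adjusted p = 0.939). Between 1704 and 2179 reads per library stood behind the gene. About 3 in 4 tested genes were below it, 75.2% in ES and 76.0% in control.

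Mst1r, which encodes RON, was at 0.416, 0.552 and 0.637 FPKM in the ES libraries, against 0.954, 0.698 and 0.882 FPKM in the control libraries. Every ES library lay below every control library, although ES 3 and control 2 were close. The reads behind it numbered 29, 38 and 40 in ES and 64, 44 and 57 in control. Its log2 fold change of -0.67 ± 0.27 (SE) had an unadjusted p of 0.0344 and did not pass the test over all genes (edgeR adjusted p = 0.448). It was -0.68 without ES 2.

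Over the set, edgeR called 0 of the 5 tested members other than Mst1, and DESeq2 also called 0. At an unadjusted p under 0.05 edgeR gave 1 of these 5, Mst1r. Over all tested genes edgeR called 0.169%, DESeq2 called 2.03% of the genes it gave an adjusted p, and 9.95% had an unadjusted edgeR p under 0.05. The levels of 1 of these 5 members did not overlap between the groups, while 15.8% of all tested genes had no overlap. Among 5 genes, 1 at these thresholds is near the background and is no result about the set.

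Per length, the MET receptor gene exceeded its ligand gene many times, and the RON receptor gene did so less and only in ES. Met over Hgf was 19.2, 20.1 and 14.4 in the ES libraries, against 13.9, 19.9 and 16.2 in the control libraries. Those ratios overlapped. Mst1r over Mst1 was 3.46, 1.42 and 1.71 in ES, against 0.354, 0.317 and 0.486 in control, a difference that follows from the choice of Mst1. Met over Mst1r was 51.2, 47.8 and 36.0 in the ES libraries and 26.6, 35.4 and 24.9 in the control libraries.

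The activator gene Hgfac (ENSRNOG00000009572, chromosome 14, 80966903 to 80973456) was near the limit of detection. It had 0, 2 and 3 reads in the ES libraries and 0, 5 and 0 in the control libraries, and it did not pass the filter on low counts. A count of 0 allows up to 0.178 CPM in ES 1, 0.185 CPM in control 1 and 0.193 CPM in control 3, taking 3 reads as the limit and counting error alone. No difference was detectable at this depth, and no fold is given.

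The inhibitor genes differed widely in level. Spint2 (ENSRNOG00000020636, chromosome 1, 87199313 to 87221892), which encodes HAI-2, was at 24.5, 24.7 and 23.1 FPKM in the ES libraries, against 21.7, 24.1 and 26.0 FPKM in the control libraries. The ES values lay within the control range. Its log2 fold change was 0.00 ± 0.10 (SE; edgeR adjusted p = 0.995). Spint1 (ENSRNOG00000012811, chromosome 3, 111049118 to 111062011), which encodes HAI-1, was at 1.92, 1.80 and 1.62 FPKM in the ES libraries, against 1.19, 2.15 and 1.37 FPKM in the control libraries. Control 2 was the highest of the 6, so the groups overlapped, and the log2 fold change was 0.18 ± 0.26 (SE; edgeR adjusted p = 0.868). The value rests on single libraries, since it was 0.48 without control 2 and 0.02 without control 1, and passed the test in neither case (edgeR adjusted p = 0.498 and 0.995). Spint2 over Spint1 was 12.7 to 14.2 in ES and 11.2 to 19.1 in control.

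In order of mean FPKM, ES nerve had Spint2 at 24.1 and Met at 23.5, whose ranges overlapped, then Spint1 at 1.78, Hgf at 1.34, Mst1r at 0.535, Mst1 at 0.294 and Hgfac at 0.0517. From Met down, no range in ES overlapped the next. Control nerve had Met at 24.0 and Spint2 at 23.9, whose ranges overlapped, then Mst1 at 2.24, Spint1 at 1.57 and Hgf at 1.48, of which each overlapped the next, and then Mst1r at 0.845 and Hgfac at 0.0534. Mst1 stood behind Mst1r in ES and ahead of Spint1 in control, while Spint1, Hgf, Mst1r and Hgfac kept their order among themselves. The shift of Mst1 follows from its choice.

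Of the 7 genes, Mst1r and Mst1 lie closest, 157.6 kb apart, and Hgf and Met lie 29269.4 kb apart on chromosome 4 on opposite strands. No annotated gene overlaps Mst1 or Mst1r. The 6 genes tested between Mst1r and Mst1, which are Traip, Uba7, Inka1, Ip6k1, Gmppb and Rnf123, had log2 fold changes from -0.19 to 0.12, and edgeR called 0 of them (adjusted p = 0.712 to 0.989). They include Uba7, the activating enzyme for the ubiquitin-like protein ISG15, and Rnf123, a ubiquitin ligase subunit.

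The nearest gene on the left, Rnf123, lies on the opposite strand with its start 1135 bases from the start of Mst1. Rnf123 was at 73.6 ± 6.80 CPM in ES and 67.9 ± 4.37 CPM in control (SD, n = 3 each). The nearest on the right, Apeh, which encodes an acylpeptide hydrolase, lies on the opposite strand with its end 201 bases from the end of Mst1. Apeh was at 68.0 ± 4.02 CPM in ES and 65.6 ± 5.35 CPM in control (SD, n = 3 each), with a log2 fold change of 0.05 ± 0.09 (SE; edgeR adjusted p = 0.877). Both neighbours overlapped between the groups. Whether reads were counted by strand is not given in the sources used here.

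**Figure D2:**
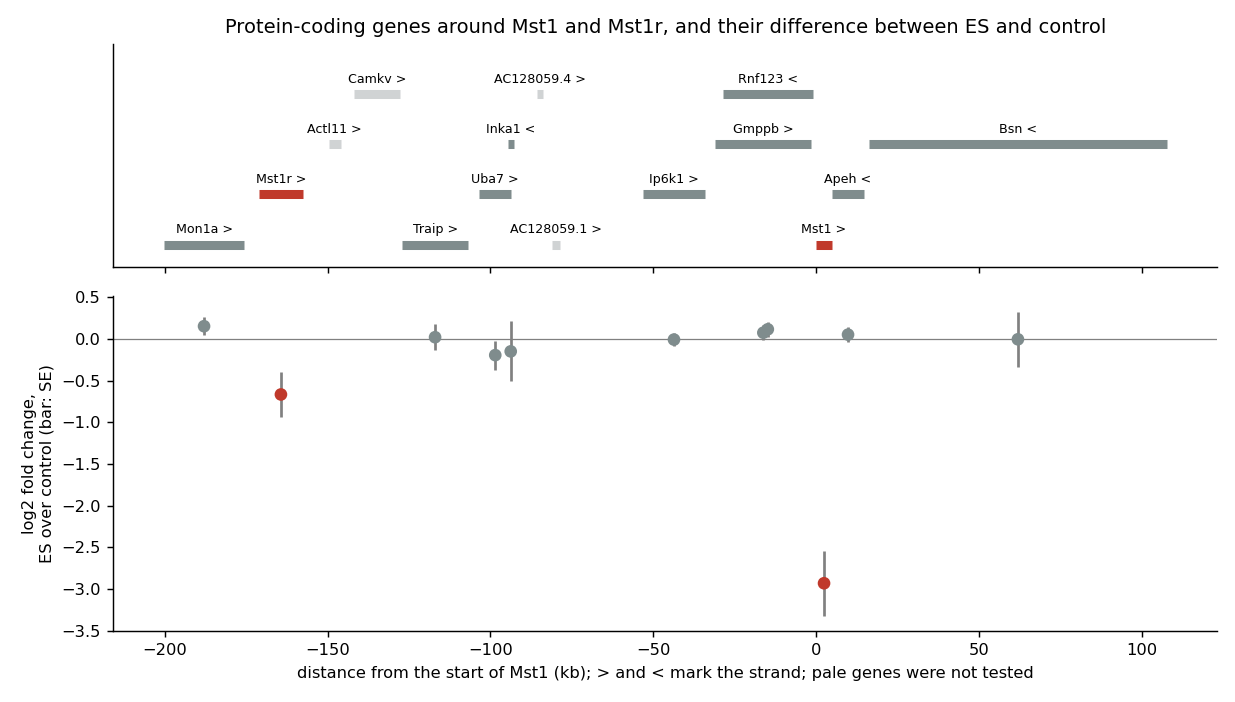
Protein-coding genes around Mst1 and Mst1r by distance from the start of Mst1 in kb (top), and the log2 fold change, ES over control, with its SE for each tested gene (bottom). Mst1 at -2.93 and Mst1r at -0.67 (red) stand below their tested neighbours, which lie between -0.19 and 0.15.

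Mst1 had its closest match across the 6 libraries in Gpd1, the cytosolic glycerol-3-phosphate dehydrogenase, among 13200 protein-coding genes with a mean of at least 1 CPM. Likeness was measured as the root mean square difference of log2(CPM + 0.5) after subtracting each gene's mean. It was 0.143 for Gpd1, 0.212 for Lgals12, 0.246 for Dmrt2, 0.247 for Tmem179, 0.292 for Rbp4 and 0.306 for Sucnr1. Lgals12 encodes galectin-12, Dmrt2 a transcription factor, Rbp4 the plasma carrier of retinol and Sucnr1 the succinate receptor.

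Gpd1 was at 18.8, 41.7 and 45.7 CPM in the ES libraries, against 192, 181 and 155 CPM in the control libraries. Mst1 itself was at 0.296, 0.958 and 0.919 CPM in ES and 6.66, 5.44 and 4.49 CPM in control. Rbp4 was at 2.73, 7.79 and 8.47 CPM in ES, against 49.1, 29.2 and 36.2 CPM in control. ES 1 was the lowest library for Mst1 and for all 6 of these genes, and no gene overlapped between the groups. Since they were picked for likeness to Mst1, their lower level in ES is fixed by that choice.

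**Figure D3:**
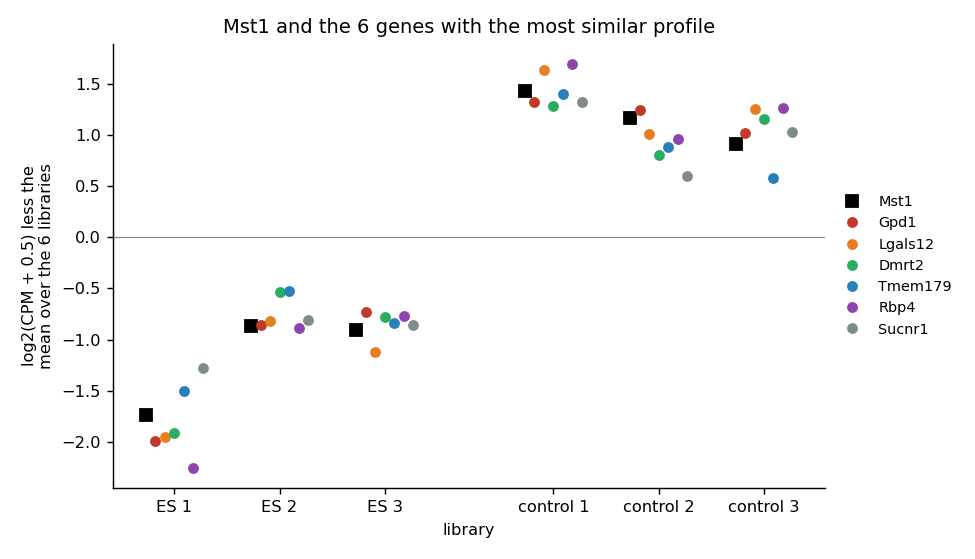
Level of Mst1 (black squares) and of the 6 genes with the most similar profile (circles) in each library, as log2(CPM + 0.5) less the gene's mean over the 6 libraries. All 7 genes lie below 0 in the ES libraries and above 0 in the control libraries, with their lowest values in ES 1.

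Hgf and Met had quite other matches. Hgf was closest to Lrif1 (0.0576), Dnajc27 (0.065) and the Rps4x gene ENSRNOG00000029574 (0.0686), 1 of 2 with that symbol whose reads may be shared, and their log2 fold changes were -0.13, -0.18 and -0.07. Met was closest to Cmtm4 (0.0252), the clone-named gene AC141959.1 (0.0279) and Ssbp2 (0.0297), whose log2 fold changes were -0.05, -0.06 and -0.06.

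Of the cell type marker lists, that of adipocytes stood lower in ES along with Mst1. Of its 12 markers, 11 had a log2 fold change below 0, with a median of -2.02, and edgeR called 0 of them while DESeq2 called 3 lower. Of all 14828 tested genes, 7310 were below 0. EdgeR called 0.169% of these genes and DESeq2 2.03% of those it gave an adjusted p, in either direction. The summed level of the 12 markers was 229, 863 and 456 CPM in the ES libraries, against 1930, 1690 and 1600 CPM in the control libraries. No marker of the list was at 0 in all libraries, and Adipoq, the adiponectin gene, was at 6.28, 45.7 and 24.5 CPM in ES, against 266, 140 and 145 CPM in control. The 6 libraries had the same order for Mst1 as for this sum, with ES 1 lowest and control 1 highest. The choice of Mst1 fixed its order between the groups, so only the order within each group is free of it. Within ES, the order of ES 2 and ES 3 rests on 16 against 14 reads of Mst1, which counting error alone could reverse. Gpd1, the closest match to Mst1, is among the 12 markers summed. Per 1000 CPM of the list, Mst1 was at 1.29, 1.11 and 2.02 CPM in the ES libraries and 3.45, 3.22 and 2.82 CPM in the control libraries, which do not overlap. Because Mst1 was chosen for its lower level in ES, this separation follows in part from that choice. The part of fat cells in the level of Mst1 was not tested.

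**Figure D4:**
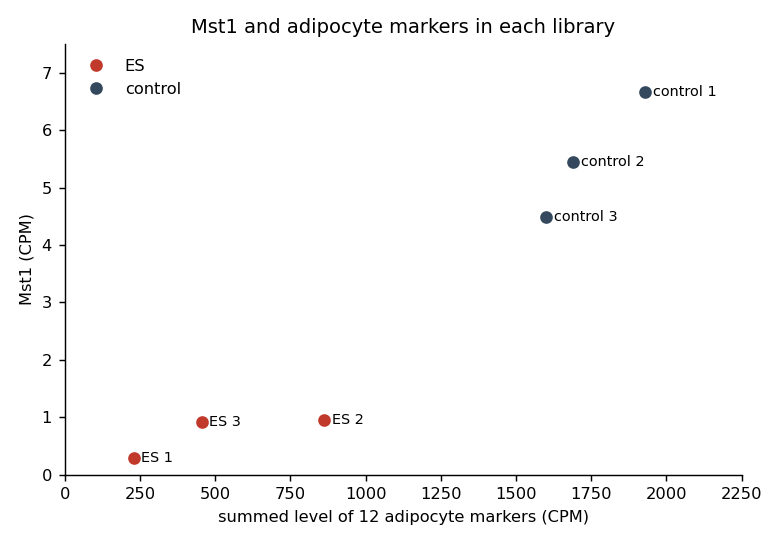
Level of Mst1 in CPM against the summed level of 12 adipocyte markers in CPM, with 1 point per library for ES (red) and control (dark blue). Both values are lowest in ES 1 and highest in control 1, and the groups stand apart on both axes. The choice of Mst1 fixed the separation on its own axis.

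The summed levels of 5 other lists also lay apart between the groups. The endothelial sum was 498 to 532 CPM in ES and 650 to 723 CPM in control, with 7 of 7 tested markers below 0 on the log2 scale. The smooth muscle and pericyte sum was 754 to 899 CPM in ES and 1070 to 1370 CPM in control, with 7 of 8 markers below 0. In each of these lists edgeR called 1 marker lower, Kdr, the VEGF receptor gene, and Myh11, smooth muscle myosin, while DESeq2 called 4 endothelial and 5 smooth muscle and pericyte markers lower. Skeletal muscle markers, with 3 of 3 tested below 0 and 0 called by edgeR or DESeq2, summed to 6.52 to 9.98 CPM in ES and 10.9 to 16.1 CPM in control. The macrophage sum, of cells on which RON is known to act, was higher at 1510 to 2000 CPM in ES and 1250 to 1420 CPM in control, with 11 of 11 markers above 0, 0 called by edgeR and 3 called higher by DESeq2. Neutrophil markers, with 5 of 5 tested above 0, 0 called by edgeR and 1 called higher by DESeq2, summed to 26.9 to 276 CPM in ES and 22.5 to 26.4 CPM in control. The high sum was that of ES 2 alone, and ES 3 at 26.9 CPM was barely above control 1 at 26.4 CPM. Lcn2, at 97.2 CPM in ES 2, was at 7.65 and 8.67 CPM in ES 1 and ES 3, below every control library (9.37 to 11.9 CPM). DESeq2 gave no adjusted p to Lcn2, S100a8 and S100a9, and the neutrophil marker it called was Csf3r (DESeq2 adjusted p = 0.0497). Sums overlapped for Schwann cells (12000 to 12800 CPM in ES and 9480 to 12200 CPM in control), fibroblasts, perineurial cells, erythrocytes and mast cells. In these 5 lists edgeR called 0 markers, and DESeq2 called 3 Schwann cell markers higher and 2 fibroblast markers lower. Among erythrocyte markers, DESeq2 gave no adjusted p to Hba-a1, Hba-a3, Hbb, Alas2 and Slc4a1. Over all tested genes, the share called in either direction was 0.169% for edgeR and 2.03% for DESeq2, and 7310 of 14828 were below 0. Cldn5 of the endothelial list had no read in any library, and Pecam1 and Itgam were not among the lines analysed here. The part of these cells in the levels of Mst1 and Mst1r was not tested.

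Liver genes were nearly absent from the nerve. The 11 secreted liver proteins found in the table, with Alb (albumin), Ttr and Plg among them, summed to 1.19 to 1.84 CPM in ES and 1.54 to 2.49 CPM in control, and 0 of them passed the filter on low counts. The 9 hepatocyte markers found summed to 0.296 to 1.08 CPM in ES and 0.771 to 1.23 CPM in control.

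The proteases that activate pro-HGF and pro-MSP were present apart from Hgfac and its plasma relatives, although Hpn, the hepsin gene, was low. Hpn was at 0.747 ± 0.353 CPM in ES and 0.681 ± 0.335 CPM in control (SD, n = 3 each). Of the 9 proteases listed, 5 were tested, and edgeR called 0, with a median log2 fold change of 0.17 against 0.0025 over all tested genes. Plat, tissue plasminogen activator, was at 605, 635 and 585 CPM in ES, against 481, 507 and 455 CPM in control, with no overlap. Its log2 fold change of 0.34 ± 0.08 (SE) did not pass edgeR's test (adjusted p = 0.129) but passed that of DESeq2 (adjusted p = 0.00197). St14, which encodes matriptase, was at 16.5 ± 2.76 CPM in ES and 13.9 ± 0.573 CPM in control (SD, n = 3 each; edgeR adjusted p = 0.608). Plau, urokinase, was at 56.8 ± 10.6 CPM in ES and 50.6 ± 6.27 CPM in control (SD, n = 3 each; edgeR adjusted p = 0.752), and Tmprss13 was at 1.69 ± 0.447 CPM in ES and 1.91 ± 0.434 CPM in control. Klkb1, the plasma prekallikrein gene, named after its values were seen, had 0, 10 and 5 reads in ES and 0 in each control library.

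Of the 5 listed inhibitors of these proteases, 4 were tested and edgeR and DESeq2 called 0, with a median of 0.09 and 0 at an unadjusted edgeR p under 0.05. Serping1, the complement C1 inhibitor, was at 833 ± 145 CPM in ES and 901 ± 115 CPM in control (SD, n = 3 each). Serpina5 had no read in any library.

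All 10 co-receptors and surface partners of MET or RON were tested, with a median log2 fold change of 0.04. EdgeR and DESeq2 called 0, and 3 of 10 were higher at an unadjusted edgeR p under 0.05, where 9.95% of all tested genes passed in either direction. Plxnb3, a plexin of the B family, was at 17.8, 14.1 and 17.7 CPM in ES, against 11, 13.2 and 11.6 CPM in control, with a log2 fold change of 0.47 ± 0.14 (SE; edgeR adjusted p = 0.256). Sdc1, a heparan sulphate proteoglycan, had one of 0.23 ± 0.07, and the integrin Itga6, partner of Itgb4, one of 0.18 ± 0.08 (SE; edgeR adjusted p = 0.299 and 0.479). Cd44, the co-receptor of MET, was abundant at 377 ± 23.6 CPM in ES and 343 ± 23.9 CPM in control (SD, n = 3 each; edgeR adjusted p = 0.619).

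The 21 tested adaptors and kinases downstream of the receptors were flat, with a median of -0.0033 and log2 fold changes between -0.19 and 0.17. EdgeR and DESeq2 called 0, and Akt2 alone had an unadjusted p under 0.05. Akt2 was at 83.1, 83.8 and 81.6 CPM in ES, against 93.4, 95.4 and 93.7 CPM in control, with a log2 fold change of -0.19 ± 0.07 (SE; edgeR adjusted p = 0.356). Src, Map2k1 and Akt1 had log2 fold changes of 0.17, 0.16 and 0.13 (edgeR adjusted p = 0.528, 0.533 and 0.616). The adaptor gene Gab1 was at 82.9 ± 5.17 CPM in ES and 85.4 ± 5.13 CPM in control (SD, n = 3 each).

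The 13 negative regulators had a median of 0.15, with 3 below 0, while 7310 of all 14828 tested genes were below 0. EdgeR and DESeq2 called 0, while 3 were higher and 1 lower at an unadjusted edgeR p under 0.05, against 9.95% of all tested genes in either direction. The Sprouty genes, inhibitors of receptor tyrosine kinase signalling, differed in direction. Spry4 was at 33.0, 40.1 and 38.7 CPM in ES, against 50.3, 45.2 and 46.6 CPM in control, with a log2 fold change of -0.35 ± 0.10 (SE; edgeR adjusted p = 0.227). Spry2 was at 83.6, 73.0 and 74.1 CPM in ES, against 60.6, 69.4 and 62.9 CPM in control, with one of 0.26 ± 0.09 (SE; edgeR adjusted p = 0.315). Neither Spry4 nor Spry2 overlapped between the groups, while 15.8% of all tested genes had no overlap. The difference between these genes was not tested. Spry1, also listed, overlapped between the groups, with a log2 fold change of -0.14 ± 0.08 (SE; edgeR adjusted p = 0.62). Adam17, a protease that sheds cell-surface receptors, and the receptor phosphatase Ptprj each had a log2 fold change of 0.17 ± 0.07 (SE; edgeR adjusted p = 0.466 and 0.477).

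**Figure D5:**
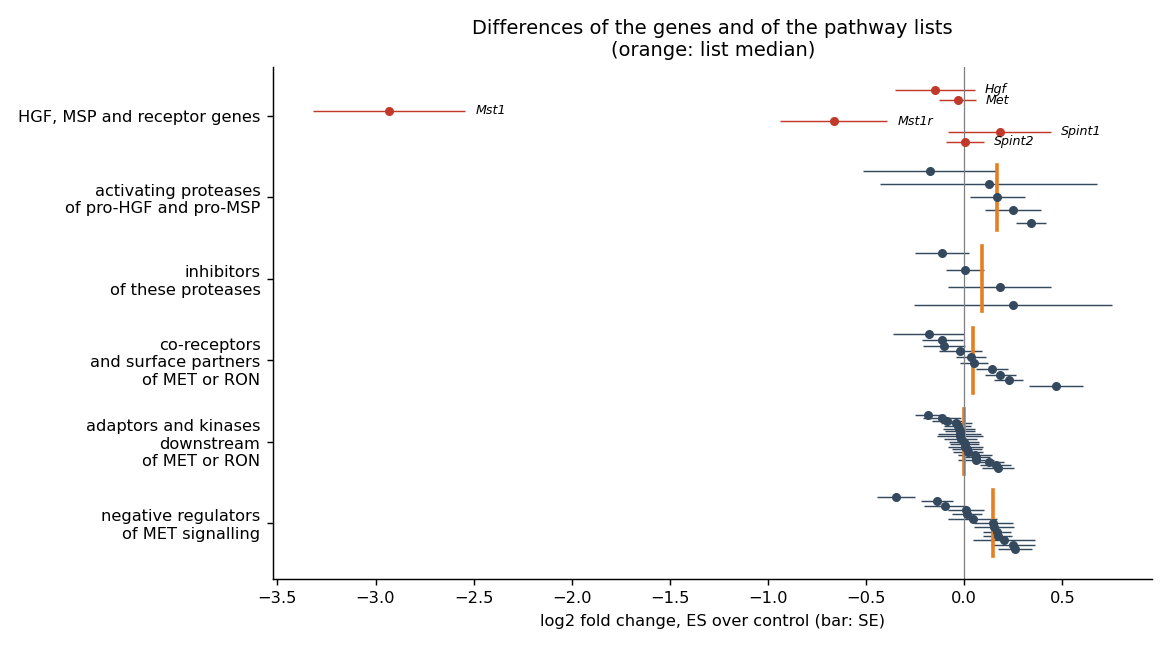
Log2 fold changes, ES over control, with SE for the 6 tested genes of the set (red) and for the tested genes of 5 pathway lists (dark blue), 1 row of points per gene; orange lines mark list medians. Mst1 at -2.93 and Mst1r at -0.67 lie left of every listed gene, and the list medians lie between -0.0033 and 0.17.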

How the data were processed

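Per the file headers, the authors' deposited tables give each gene a raw read count and an FPKM in each of 6 libraries. Aligner, counter and strand handling: not given in the sources used here. Libraries held 14962319 to 17119144 counts. Libraries of 1 group differed beyond sampling noise (chi-square per gene 11.1 to 19.1). Counts were tested with edgeR 4.0.16 in R 4.3.3 (filterByExpr, TMM, robust quasi-likelihood F test, two-sided), with Benjamini-Hochberg adjustment over all 14828 genes kept, and a call at an adjusted p under 0.05; the SE is the absolute log2 fold change over the square root of F. CPM uses TMM-scaled library sizes. The 830 loci with no gene name were kept. DESeq2 1.42.0, limma 3.58.1, other scalings and filters, FPKM with pseudocounts of 0.1 and 1, a replicate block and leaving out each library were alternatives. Scripts were tested on simulated counts. From each pathway list the text names every called gene and up to 4 with the lowest p, of which 1 is not reported here; other list genes were named after their values were seen. All 7 members matched a RefSeq promoter. The members, lists and motifs were chosen with earlier results of these data known.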

Additional observations from a re-analysis of the deposited data

How the results depend on the processing

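The count of called genes depended on the setting: 25 in the test reported and with RLE factors, but 39 with library totals only, 132 without a filter, 308 with DESeq2, 2 with limma-voom, with non-robust dispersions and on log2(FPKM + 0.1), and 3 on log2(FPKM + 1). Leaving out 1 library gave 2 to 152, with 2 without control 3, 5 without control 1, 41 without ES 3 and 152 without control 2. With the replicate number as a block it was 11. Same-numbered libraries did not deviate together (r = -0.143, -0.152 and -0.0398), but with 3 libraries per group this cannot settle whether the numbers pair the samples. In all 16 alternatives 0 members other than Mst1 were called. The log2 fold change of Mst1 stayed between -3.19 and -2.54 when 1 library was left out and was -1.32 on log2(FPKM + 1), where the pseudocount exceeds its ES level. Mst1r ranged from -0.81 to -0.27, with adjusted p from 0.313 to 0.797, and kept its direction in all 16. Spint1 ranged from 0.0186 (without control 1) to 0.475 (without control 2) and kept its direction. Near-zero differences changed sign: leaving out 1 library gave Hgf -0.292 to 0.0381 (above 0 without control 1), Met -0.119 to 0.0369 (above 0 without ES 1 or control 1) and Spint2 -0.0592 to 0.0702 (below 0 without ES 1, ES 2 or control 1), and library totals only gave Spint2 -0.000123. Differences in Mst1, Mst1r and Hgfac are limited by their few reads.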
